A study of Mus musculus with 9 samples.

Results

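In 9 mouse hearts, 10 genes of cellular iron handling were described, selected by symbol from the 43154 genes listed for every heart. They comprise 4 genes of uptake (Tfrc, Trf, Hfe and Slc11a2), 2 of storage (Fth1 and Ftl1), 2 of export (Slc40a1 and Cp) and 2 that encode the iron regulatory proteins (Ireb2 and Aco1). Each symbol matched 1 line in each heart, and all 10 genes passed the filter for testing. All mice were C57BL/6. Transgenic mice expressed calcineurin, a calcium-dependent phosphatase that drives cardiac enlargement, from a myosin heavy chain (MHC) promoter, which restricts the transgene to cardiomyocytes. Of the transgenic hearts, 3 came from mice given vehicle and 2 from mice given JIB-04, an inhibitor of Jumonji histone demethylases, enzymes that themselves use ferrous iron as a cofactor. Doses of 50 mg/kg were given 3 times a week from the age of 4 weeks. The 4 wild type hearts came from mice given vehicle, and wild type mice given JIB-04 were not analysed here. Transgenic vehicle heart 1, JIB-04 heart 1 and wild type hearts 1 and 2 were labelled postnatal day 125, and the other 5 hearts day 158, although the series text describes treatment up to day 158. The labels give each heart its own mouse number but no litter, sex or day of RNA extraction, so p-values measure the spread between these hearts.

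Iron circulates bound to transferrin, enters cells through the transferrin receptor, is stored inside ferritin and leaves through ferroportin, with a copper ferroxidase such as ceruloplasmin oxidising it on the way out. When iron is scarce, iron regulatory proteins bind hairpins called iron-responsive elements: in the 3′ untranslated region (UTR) of the transferrin receptor mRNA this protects the message from decay, and in the 5′ UTR of ferritin and ferroportin mRNAs it blocks translation. Cardiomyocytes depend on iron for their dense mitochondria, and an excess or a lack of iron impairs contraction. Sequencing of mRNA can show changes in message level, but not the block in translation.

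The hairpins are printed because, in the genes where they were found, their place separates control of message level from control at translation. They were found in GENCODE release M21 transcripts (GRCm38) as CNNNNNCAGTGN on the transcript strand, with 5 paired bases (G·T pairs allowed) on each side of the 6-base loop. Each is printed 5′ to 3′ over 27 bases with T for U and the loop in capitals. Tfrc held 4 in exon 19, all in the 3′ UTR of 1 of its 3 coding transcripts, at chr16:32631220-32631246, chr16:32631599-32631625, chr16:32631664-32631690 and chr16:32631711-32631737 (plus strand). Fth1 held 1 in the 5′ UTR at chr19:9982733-9982759 (plus strand), in 4 of 5 coding transcripts. Ftl1 held 1 in the 5′ UTR at chr7:45459780-45459806 (minus strand), in 2 of 3 coding transcripts. Slc40a1 held 1 in the 5′ UTR at chr1:45925466-45925492 (minus strand), in 1 of 4 coding transcripts.
Tfrc element 1: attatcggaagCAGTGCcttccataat
Tfrc element 2: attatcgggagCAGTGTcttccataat
Tfrc element 3: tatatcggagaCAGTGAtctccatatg
Tfrc element 4: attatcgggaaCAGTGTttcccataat
Fth1: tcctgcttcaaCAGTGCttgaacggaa
Ftl1: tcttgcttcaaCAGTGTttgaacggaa
Slc40a1: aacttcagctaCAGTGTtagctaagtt
The 2 ferritin elements differed at 2 of 27 bases, and those of Fth1 and Slc40a1 at 14 of 27. The same pattern was found in the 5′ UTR of 31 of 21181 genes (0.146%) and in the 3′ UTR of 144 of 21173 genes (0.68%). It was not found in these UTRs of Trf, Hfe, Slc11a2, Cp, Ireb2 or Aco1. The pattern is strict: an element with another loop, or with a mismatch or extra bulge in the stem, would be missed. Its absence therefore does not show that a gene, or Tfrc beyond these 4, lacks further elements.

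The unit of level is FPKM, fragments scaled to transcript length and to the library, which allows comparison between genes. Differences are on the scale of log2(FPKM + 1), which understates changes of genes at low levels such as Slc40a1. The 13487 genes with 1 FPKM or more in 2 or more hearts were fitted together with limma, with terms for group and day. Adjusted p-values are those of limma with Benjamini-Hochberg adjustment over all 13487 genes, and a gene is said to rise or fall only at an adjusted p below 0.05. Read totals per heart were not given in the sources used here. Ppp3ca, the calcineurin A gene, was at 22.9 to 24.8 FPKM in wild type hearts and at 1434 to 1762 in 4 transgenic hearts, but at 199 in transgenic vehicle heart 3. That heart also stood apart with JIB-04 heart 2 in mt-Atp6, a mitochondrially encoded gene listed at 28963.5 and 29964.2 FPKM in these hearts and at 0 in the other 7. The 6 cardiomyocyte markers summed to 9726 to 15746 FPKM over the 9 hearts, so the markers of the labelled tissue were abundant in all.

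The first comparison, transgenic against wild type hearts under vehicle, asks how the calcineurin transgene bears on iron handling. Both export genes changed, in opposite directions: Slc40a1, the iron exporter ferroportin, fell by 1.89 ± 0.18 (SE) on the log2 scale, and Cp, the ferroxidase ceruloplasmin, rose by 1.80 ± 0.12. None of the 4 uptake genes, the 2 ferritin chains or the 2 iron regulatory proteins passed the test. Thus 1 of the 10 genes rose and 1 fell, while 36.0% of all genes tested were called, 20.3% higher and 15.7% lower. The median difference was -0.0015 over the 10 genes and 0.05 over all genes.

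**Figure D1:**
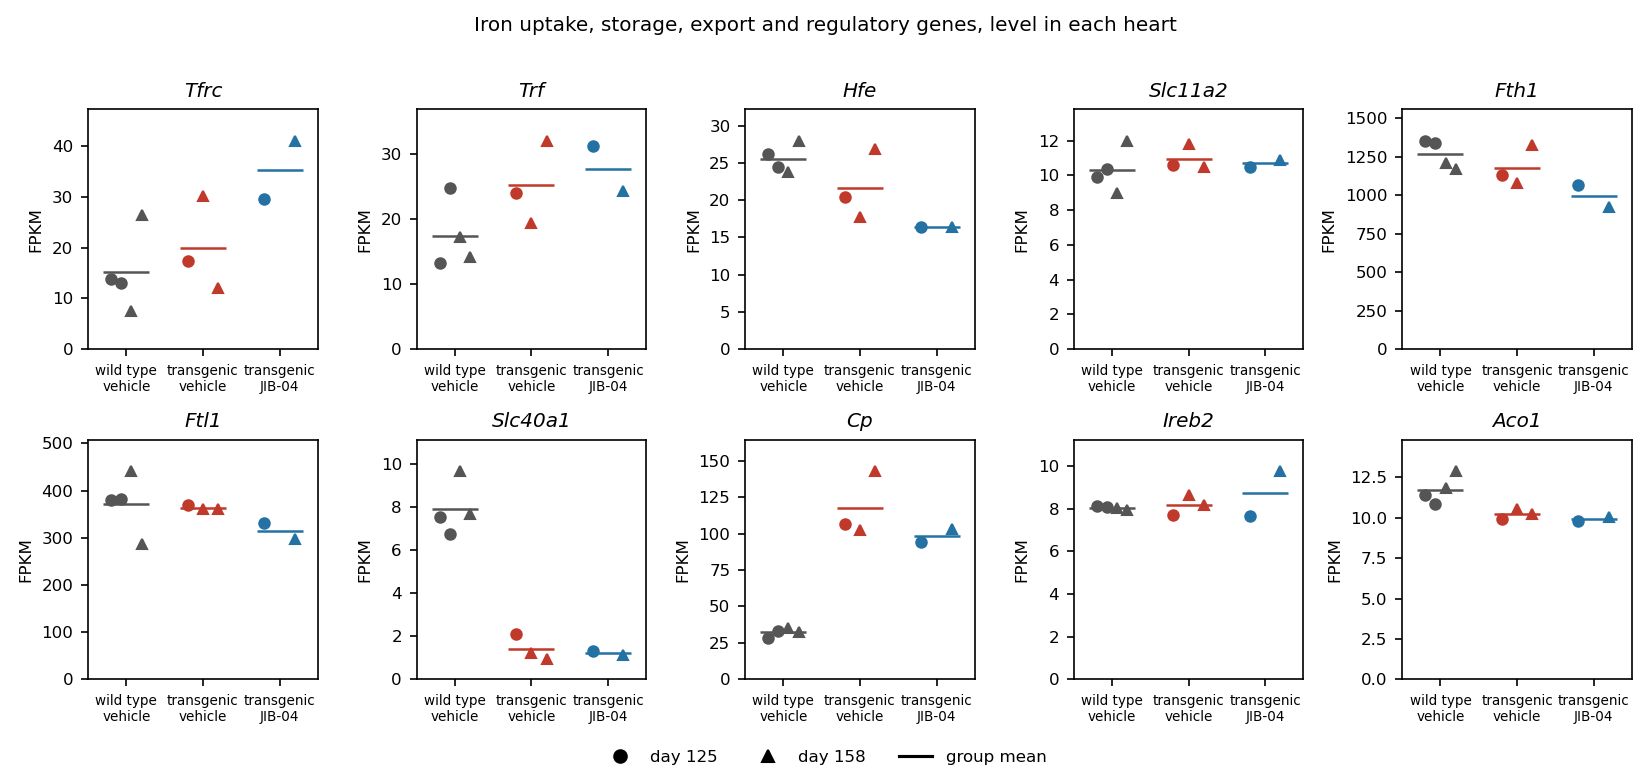
Level of each of the 10 iron genes in FPKM (linear axes from 0) in wild type vehicle, transgenic vehicle and transgenic JIB-04 hearts, 1 point per heart, circles for day 125, triangles for day 158 and lines for group means. Slc40a1 lay between 6.74 and 9.69 in wild type hearts and between 0.932 and 2.10 in transgenic hearts, whereas Slc11a2 and Ireb2 lay close together in all groups.

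Slc40a1 (chr1:45908068-45926523, minus strand) encodes the only known iron exporter of mammalian cells. In wild type hearts 1 to 4 it was at 7.53, 6.74, 9.69 and 7.66 FPKM. In transgenic vehicle hearts 1 to 3 it was at 2.10, 1.21 and 0.932 FPKM, and in JIB-04 hearts 1 and 2 at 1.29 and 1.13 FPKM. Every transgenic heart lay below every wild type heart, and the vehicle groups averaged 1.41 ± 0.61 (SD, n = 3) and 7.91 ± 1.26 (SD, n = 4). The fall of 1.89 corresponds to 0.27 times the wild type value of FPKM + 1 (95% interval of the log2 difference -2.29 to -1.48, limma adjusted p = 0.000179). It was called in all 23 alternative analyses, from -2.43 to -1.72.

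Ferroportin is abundant in macrophages, which recycle iron. The summed level of 12 macrophage markers was 195 to 265 FPKM in wild type, 219 to 287 in transgenic vehicle and 222 to 256 in JIB-04 hearts, so the groups overlapped. Of 11 macrophage markers tested between the vehicle groups, none was called lower. Vsig4 was called higher, but it reached the filter only through the transgenic vehicle hearts, where it was highest, so that call carries no weight. The remaining marker, Timd4, a marker of resident macrophages, was below the filter and not tested (mean 0.667 FPKM in wild type, 0.247 in transgenic vehicle and 0.146 in JIB-04 hearts). Of 6 endothelial markers, 5 fell, and their sum was 184 to 195 FPKM in wild type, 105 to 135 in transgenic vehicle and 110.2 to 114 in JIB-04 hearts. Cardiomyocyte markers summed to 13321 to 15746, 9726 to 12499 and 10581 to 11675 FPKM in these groups. Of these 6 markers, 3 fell between the vehicle groups (Myh6, Tnni3 and Pln), and Tnnt2, Actc1 and Ryr2 were not called. The adipocyte sum was 338 to 440, 213 to 263 and 230 to 264 FPKM. It was nearly all Fabp4 and is no measure of adipocytes, since Adipoq, Plin1 and Cidec averaged 0.158, 0.049 and 0.12 FPKM over all hearts. Cardiomyocyte sums, like endothelial sums, were thus lower in all transgenic hearts, while fibroblast sums, given below, were higher. The part of these cells in the result was not tested, and in whole hearts fewer cells of a type cannot be told apart from less RNA per cell.

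Cp (chr3:19957054-20009145, plus strand) encodes ceruloplasmin, a copper enzyme that converts ferrous to ferric iron at the cell surface or in plasma. It was at 28.2, 32.8, 35.0 and 32.5 FPKM in wild type hearts 1 to 4. It was at 107, 102 and 143 FPKM in transgenic vehicle hearts 1 to 3, and at 94.0 and 103 FPKM in JIB-04 hearts 1 and 2. The lowest transgenic level was above the highest wild type level, and the highest level was in transgenic vehicle heart 3, the heart with little Ppp3ca. The rise of 1.80 was 3.48-fold on FPKM + 1 (95% interval of the log2 difference 1.53 to 2.07, limma adjusted p = 3.1e-05), and it was called in all 23 alternatives, from 1.68 to 2.02.

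Ceruloplasmin in plasma comes from the liver, and the liver markers Alb, Apoa1, Serpina1a and Fga averaged under 1 FPKM in each group, Fga being listed at 0 in all transgenic hearts. Ttr, the liver marker that could be tested, was at 0.410 ± 0.245 (SD, n = 4) in wild type and 1.87 ± 0.838 FPKM (SD, n = 3) in transgenic vehicle hearts. It reached the filter only through transgenic hearts, so its difference is given as a description with no test. Of 6 fibroblast markers, 3 rose with Cp between the vehicle groups (Dcn, Tcf21 and Pdgfra). The sum of all 6, mostly Dcn, was 249 to 313 FPKM in wild type, 484 to 641 in transgenic vehicle and 544 to 583 in JIB-04 hearts. Col1a1, Col1a2 and Lum were not called. Their transgenic vehicle levels ran from 9.67 to 48.4, 19.5 to 54.5 and 21.1 to 65.1 FPKM, against wild type means of 13.7, 19.5 and 37.7. The part of fibroblasts in the Cp result was not tested. Exons of Cp overlap those of Hps3 on the opposite strand, and the libraries did not keep strand. Hps3 averaged 4.42 ± 0.40 (SD, n = 4) FPKM in wild type and 5.11 ± 0.44 (SD, n = 3) in transgenic vehicle hearts, a small level beside that of Cp.

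**Figure D2:**
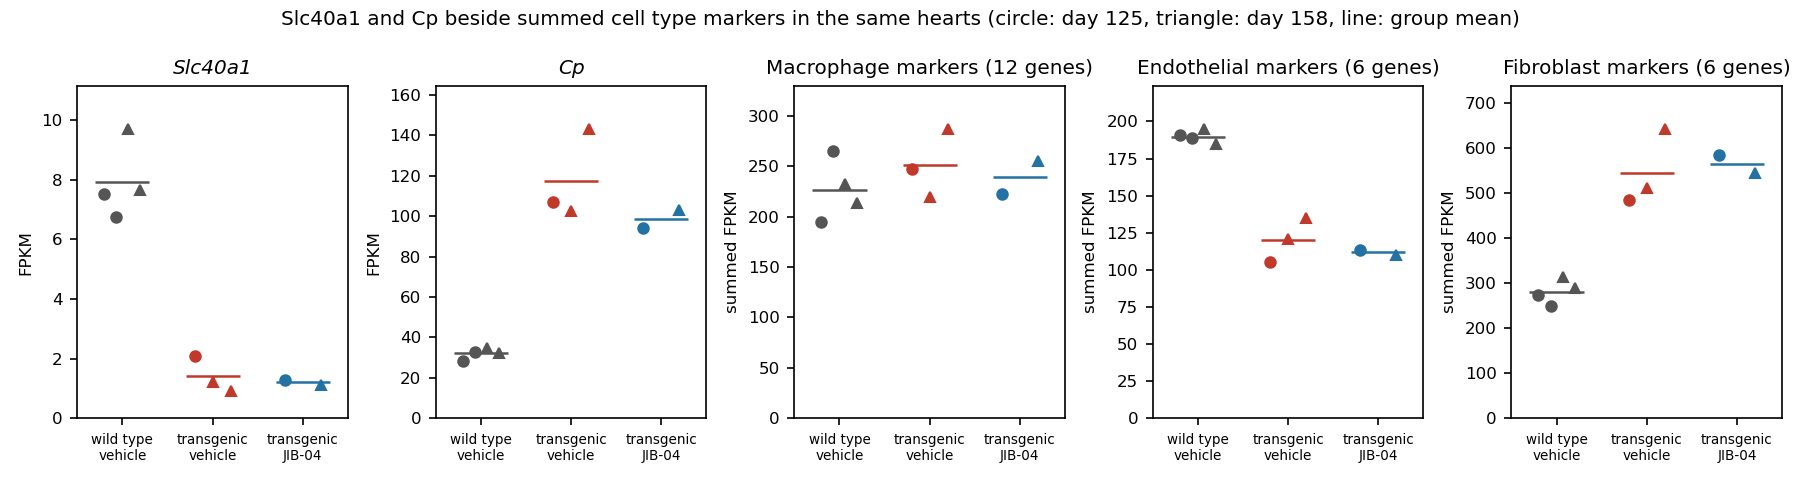
Slc40a1 and Cp in FPKM beside the summed FPKM of macrophage, endothelial and fibroblast marker genes in the same hearts (linear axes from 0, 1 point per heart, circles for day 125, triangles for day 158, lines for group means). Macrophage sums overlapped between groups, while endothelial sums were lower and fibroblast sums higher in all 5 transgenic hearts than in the 4 wild type hearts.

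Among the uptake genes, Tfrc (chr16:32608920-32632794, plus strand), the transferrin receptor, varied most within groups. Wild type hearts 1 to 4 were at 13.8, 13.1, 7.54 and 26.5 FPKM, and transgenic vehicle hearts 1 to 3 at 17.4, 30.1 and 11.9 FPKM. JIB-04 hearts 1 and 2 were at 29.5 and 41.1 FPKM. The vehicle groups overlapped, and their difference of 0.36 ± 0.41 (SE) had a 95% interval of -0.59 to 1.31, which leaves room for a change of either sign (limma adjusted p = 0.53). It was -0.04 without wild type heart 3 and 0.72 without wild type heart 4, and was not called with any heart left out. Red cell precursors carry large amounts of this receptor. The sum of 5 erythroid markers was 1947 to 4808 FPKM in wild type, 3261 to 6070 in transgenic vehicle and 4959 to 7288 in JIB-04 hearts, and the part of these cells in the Tfrc values was not tested.

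Trf (chr9:103204001-103230444, minus strand) encodes transferrin, the plasma carrier that the receptor binds. It was at 13.2, 24.7, 17.3 and 14.1 FPKM in wild type hearts 1 to 4. Transgenic vehicle hearts 1 to 3 were at 24.0, 19.4 and 32.0 FPKM, and JIB-04 hearts 1 and 2 at 31.2 and 24.3 FPKM. All transgenic hearts exceeded 3 of the 4 wild type hearts, and wild type heart 2 lay within their range. The difference of 0.55 ± 0.23 (SE, 95% interval 0.01 to 1.09) did not pass after adjustment (limma adjusted p = 0.103), and without wild type heart 2 it was 0.70 with an adjusted p of 0.0368. Glial markers, of cells known to make transferrin, summed to 6.98 to 7.88 FPKM in wild type hearts, to 4.11 to 4.62 in transgenic vehicle hearts, and to 8.63 and 4.12 in JIB-04 hearts 1 and 2. None of the 3 tested was called between the vehicle groups, and their part in the result was not tested. Gm20425, whose exons overlap Trf on the same strand, was listed at no more than 0.354 FPKM.

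Hfe (chr13:23702034-23710854, minus strand) encodes a relative of the histocompatibility class I proteins that binds the transferrin receptor. It was at 26.2, 24.5, 23.7 and 28.0 FPKM in wild type hearts 1 to 4. Transgenic vehicle hearts 1 to 3 were at 20.5, 17.8 and 26.9 FPKM, and JIB-04 hearts 1 and 2 were both at 16.4 FPKM. Hearts 1 and 2 of the transgenic vehicle group lay below all wild type hearts and heart 3 lay among them. The difference was -0.25 ± 0.13 (SE, limma adjusted p = 0.176), and without heart 3 it was -0.40 with an adjusted p of 0.0121.

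Slc11a2 (chr15:100387898-100425072, minus strand), the divalent metal transporter that moves iron out of endosomes, varied little between hearts. It ranged from 8.97 to 12 FPKM in wild type, from 10.5 to 11.8 in transgenic vehicle and from 10.5 to 10.9 in JIB-04 hearts. The transgenic vehicle minus wild type difference was 0.08 ± 0.10 (SE), with a 95% interval of -0.15 to 0.31. Gm5475, whose exons overlap it on the opposite strand, was at no more than 0.0468 FPKM.

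The storage genes had the highest levels of the 10. Fth1 (chr19:9982703-9985092, plus strand) encodes the ferritin heavy chain, which carries the ferroxidase site, and was at 1355, 1339, 1210.0 and 1172 FPKM in wild type hearts 1 to 4. It was at 1132, 1079 and 1329 FPKM in transgenic vehicle hearts 1 to 3 and at 1066 and 926 FPKM in JIB-04 hearts 1 and 2. The vehicle groups overlapped through transgenic heart 3. The order of JIB-04 and transgenic vehicle hearts is given below, beside its share over all genes. The vehicle groups differed by -0.09 ± 0.09 (SE, 95% interval -0.31 to 0.13, limma adjusted p = 0.485). Without transgenic vehicle heart 3 the difference was -0.20 with an adjusted p of 0.042, whereas scaling all hearts to equal totals gave 0.13.

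Ftl1 (chr7:45457944-45459884, minus strand), the ferritin light chain that nucleates the iron core, was at 381, 381, 442 and 287 FPKM in wild type hearts 1 to 4. It was at 369, 360.0 and 361 FPKM in transgenic vehicle hearts and at 331 and 298 FPKM in JIB-04 hearts. The vehicle groups differed by -0.0042 ± 0.13 (SE, 95% interval -0.31 to 0.30), and wild type heart 4 was the lowest of all 9. Fth1 exceeded Ftl1 in every heart, by 2.74-fold to 4.08-fold on FPKM. Ferritin genes have close copies between which reads can be split: Ftl2 was listed at 3.38 to 11.3 FPKM, Fthl17 at up to 0.0367 and Fth-ps2 at up to 0.218, all small beside the parent genes.

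Of the regulators, Ireb2 (chr9:54863755-54912534, plus strand) encodes iron regulatory protein 2, which is degraded when iron is plentiful. It lay between 7.93 and 8.13 FPKM in wild type hearts, a narrow range, at 7.68, 8.62 and 8.16 in transgenic vehicle hearts and at 7.66 and 9.76 in JIB-04 hearts. The vehicle groups differed by 0.0013 ± 0.08 (SE, 95% interval -0.19 to 0.19). Aco1 (chr4:40143081-40198338, plus strand) encodes iron regulatory protein 1, which is the cytosolic aconitase while it holds an iron-sulfur cluster and binds RNA without it.

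Aco1 was at 11.4, 10.9, 11.8 and 12.9 FPKM in wild type hearts 1 to 4. It was at 9.90, 10.6 and 10.3 FPKM in transgenic vehicle hearts and at 9.83 and 10.02 FPKM in JIB-04 hearts. All 5 transgenic hearts lay below all 4 wild type hearts, as did those of Slc40a1, against 15.3% of all genes with that order, while Cp alone had the reverse order, against 20.4%. The fitted difference of -0.19 ± 0.07 (SE, 95% interval -0.35 to -0.04) missed the threshold (limma adjusted p = 0.0587). It passed with median of ratios scaling (-0.25, adjusted p = 0.0261), but was 0.01 with hearts scaled to equal totals.

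**Figure D3:**
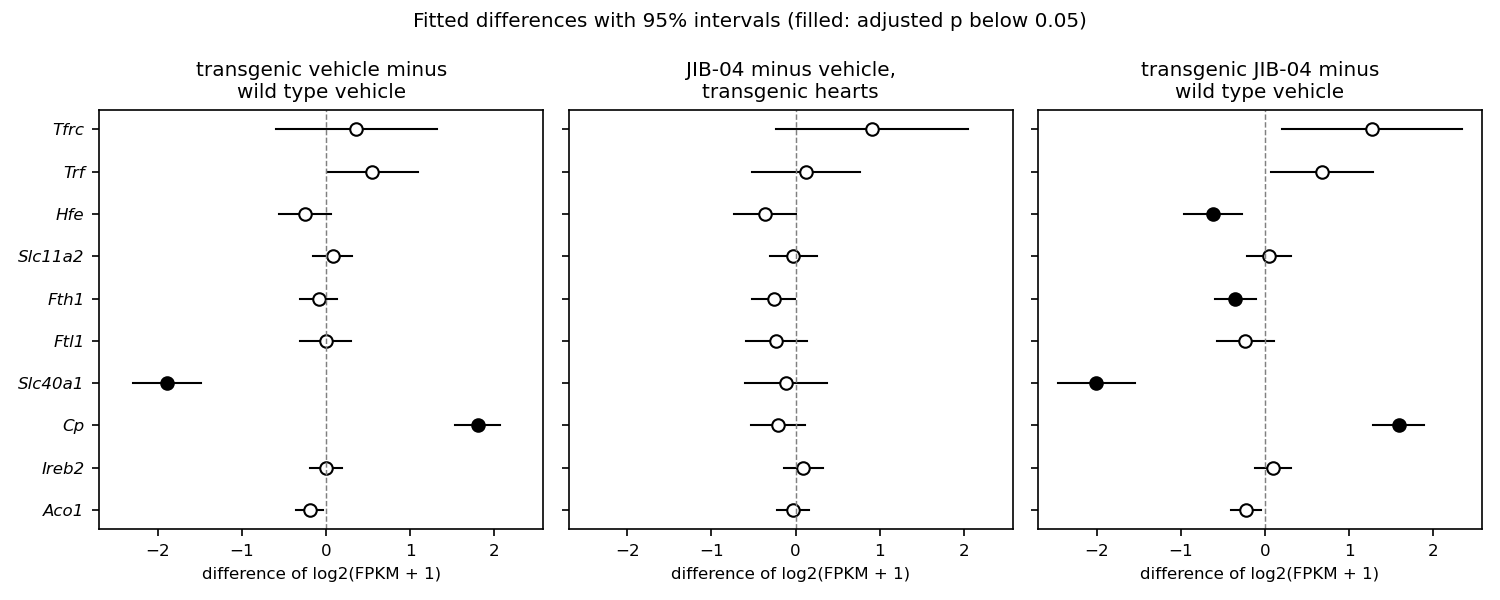
Fitted differences of log2(FPKM + 1) with 95% intervals for the 10 iron genes in 3 comparisons, filled where the adjusted p was below 0.05. Slc40a1 and Cp are filled in both comparisons with wild type, Hfe and Fth1 also in that of JIB-04 hearts, and no gene is filled in the comparison of JIB-04 with vehicle.

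In addition, 3 ratios within each heart, which do not depend on scaling between hearts, were taken for the 5 transgenic and the 4 wild type hearts. Ireb2 over Aco1 averaged -0.28 ± 0.14 (SD, n = 5) on the log2 scale in transgenic and -0.54 ± 0.12 (SD, n = 4) in wild type hearts. The ratio of the 2 messages thus lay 1.204-fold further toward Ireb2, which does not give the balance of the 2 proteins. The 5 transgenic values all exceeded the 4 wild type values (exact two-sided permutation p = 0.00794, the smallest these group sizes allow, 0.0238 after adjustment over 3 ratios). With transgenic vehicle hearts only, the difference was 0.22 with an exact permutation p of 0.0571 (smallest possible 0.0286). Tfrc over Fth1, the pair that iron moves in opposite directions at the protein level, averaged -5.53 ± 0.89 (SD, n = 5) against -6.52 ± 0.77 (SD, n = 4), with overlapping groups (exact permutation p = 0.119, adjusted 0.179). Fth1 over Ftl1 averaged 1.68 ± 0.12 (SD, n = 5) against 1.78 ± 0.24 (SD, n = 4; exact permutation p = 0.429, also after adjustment).

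**Figure D4:**
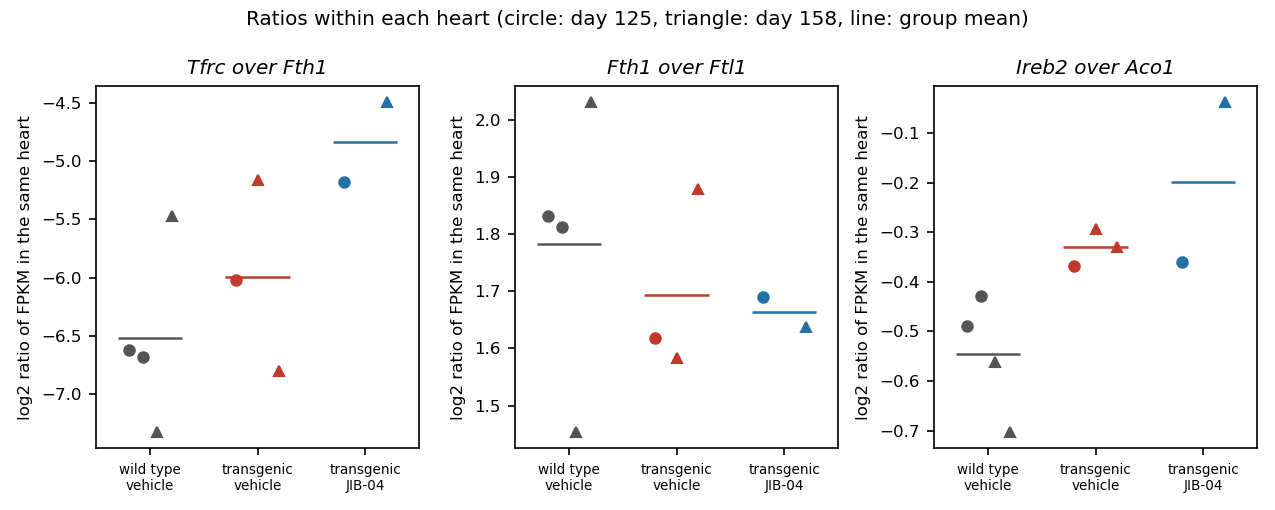
Log2 ratios of FPKM within each heart for Tfrc over Fth1, Fth1 over Ftl1 and Ireb2 over Aco1, by group (1 point per heart, circles for day 125, triangles for day 158, lines for group means; axes do not start at 0). The Ireb2 over Aco1 values of transgenic hearts, -0.37 to -0.04, all lay above those of wild type hearts, -0.70 to -0.43.

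The second comparison, JIB-04 against vehicle in transgenic hearts, asks whether the inhibitor altered these genes. No iron gene passed the test, with an adjusted p of 0.987 or 0.99 for each (limma), and 1 of all genes tested did (0.00741%). At an unadjusted p below 0.05 there were 1 of the 10 genes (Fth1) and 444 of all genes. Of the export genes, Slc40a1 differed by -0.11 ± 0.21 (SE, 95% interval -0.60 to 0.37) and Cp by -0.21 ± 0.14 (-0.53 to 0.11). Both intervals are small beside the 1.89 and 1.80 by which these genes separated the vehicle groups, a comparison that shares the transgenic vehicle hearts.

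Both JIB-04 hearts lay below all 3 transgenic vehicle hearts for Hfe, Fth1 and Ftl1, an order shown by 6.88% of all genes, and no iron gene had the reverse order, shown by 5.55%. With equal totals these were Hfe, Fth1 and Cp (10.7% of all genes), and with totals taken without mitochondrial and the 20 highest genes only Fth1 and Ftl1 (5.50%). The differences were -0.36 ± 0.16 for Hfe (95% interval -0.73 to 0.01), -0.26 ± 0.11 for Fth1 (-0.52 to -0.0018) and -0.23 ± 0.16 for Ftl1 (-0.59 to 0.14). Tfrc had the widest interval, 0.91 ± 0.49 (-0.23 to 2.05), and transgenic vehicle heart 2, at 30.1 FPKM, lay between the JIB-04 hearts. Trf differed by 0.13 ± 0.28, Ireb2 by 0.09 ± 0.10, and Slc11a2 and Aco1 by -0.03 each. The treated group held 2 hearts, 1 from each day.

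JIB-04 transgenic hearts were then set against wild type vehicle hearts, a comparison in which genotype and drug differ together and which shares its hearts with the other 2. Of the 10 genes, 4 were called, 1 higher and 3 lower, against 32.3% of all genes (17.4% higher and 14.8% lower). Cp rose by 1.59 ± 0.13 (SE, limma adjusted p = 0.000122) and Slc40a1 fell by 2.0013 ± 0.20 (adjusted p = 0.000284), both called in all 23 alternatives. Hfe fell by 0.61 ± 0.15 (95% interval -0.96 to -0.27, adjusted p = 0.016), and its 2 JIB-04 hearts at 16.4 FPKM lay below the wild type range of 23.7 to 28.0. Fth1 fell by 0.35 ± 0.11 (95% interval -0.59 to -0.11, adjusted p = 0.0364).

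The falls of Hfe and Fth1 were less secure than those of the exporter. The Hfe call was lost in 4 of 23 alternatives, among them leaving out JIB-04 heart 1 (adjusted p = 0.0944) or heart 2 (0.127), and the Fth1 call in 13 of 23. The Fth1 difference ranged from -0.41 to -0.09 over all alternatives. Tfrc was higher by 1.27 ± 0.46 (95% interval 0.20 to 2.34) and Trf by 0.68 ± 0.26, with adjusted p-values of 0.0703 and 0.0846 (limma), and each passed in 4 of 23 alternatives: without transgenic vehicle heart 3, with equal totals, with the replicate block, and without wild type heart 4 for Tfrc (adjusted p = 0.0284) or heart 2 for Trf (0.0317). Aco1 differed by -0.22 ± 0.08 (adjusted p = 0.0622), Ftl1 by -0.23 ± 0.15 (0.271), Ireb2 by 0.10 (0.466) and Slc11a2 by 0.05 (0.753). Aco1 passed in 5 of 23 alternatives, among them leaving out transgenic vehicle heart 3 (adjusted p = 0.0486), and Ftl1 in 1, leaving out wild type heart 4 (-0.35, adjusted p = 0.0421). All 6 endothelial and none of 11 macrophage markers fell in this comparison, and 1 of 3 erythroid markers tested (Alas2) rose. Their part in the result was not tested.

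Between day 158 and day 125, none of the 10 genes was called and none had an unadjusted p below 0.05, against 0.378% of all genes called (limma) and 2534 at that unadjusted p. The differences ran from -0.16 ± 0.21 (Trf) to 0.18 ± 0.36 (Tfrc). When each of the 6 pairings of group with day had its own mean, the transgenic vehicle minus wild type difference of Cp was 1.78 at day 125 (adjusted p = 0.0123) and 1.81 at day 158 (adjusted p = 0.00395). That of Slc40a1 was -1.39 at day 125 (adjusted p = 0.0172) and -2.22 at day 158 (adjusted p = 0.00181). The Slc40a1 differences were thus 0.83 ± 0.25 (SE) apart, but the test of that change between days did not pass (adjusted p = 0.999), nor did that of any other iron gene, against 0.00741% of all genes. Day 125 held 1 transgenic vehicle heart, assumed here to vary like the other groups.

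The other genes of iron and heme metabolism were taken from 7 lists, named by size of change (at most 3 called genes per list), and compared first between the vehicle groups. In that comparison 20.3% of all genes tested were called higher and 15.7% lower. Counts from lists of a few genes, several of them near these shares, are given as description and not as results about a list. The ferrireductases Steap3 and Steap4, which reduce ferric iron so that Slc11a2 can carry it, both fell. Steap4 averaged 11.9 ± 1.08 FPKM (SD, n = 4) in wild type and 5.37 ± 1.81 (SD, n = 3) in transgenic vehicle hearts, a difference of -1.07 ± 0.17 (SE, limma adjusted p = 0.00224), and Steap3 differed by -1.0035 ± 0.18 (adjusted p = 0.00391). Slc39a14, a zinc transporter that also takes up iron not bound to transferrin, rose by 0.56 ± 0.11 (adjusted p = 0.00617). Of the 10 genes of other uptake and ferrireduction, 5 were tested, with 1 higher and 2 lower and a median difference of 0.11, against 0.05 over all genes.

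The genes that load ferritin with iron or deliver it to lysosomes were not called. Pcbp1, an iron chaperone for ferritin, averaged 88.8 ± 2.80 (SD, n = 4) FPKM in wild type and 91.4 ± 2.2 (SD, n = 3) in transgenic vehicle hearts. Ncoa4, the receptor that takes ferritin to lysosomes, averaged 24.6 ± 3.71 (SD, n = 4) and 23.9 ± 1.05 (SD, n = 3). In this list of 7, 6 were tested, with a median difference of 0.03: Fbxl5, the iron-sensing ubiquitin ligase subunit that removes iron regulatory protein 2, fell by 0.31 ± 0.09 (SE, limma adjusted p = 0.0243) and Cul1, a scaffold of that ligase, rose by 0.31 ± 0.09 (adjusted p = 0.034). Both calls were lost in several alternatives, in 8 of 23 for Fbxl5 and in 13 of 23 for Cul1.

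In heme synthesis, 1 of 11 genes tested rose and 3 fell, against 20.3% and 15.7% of all genes. The median was -0.19, against 0.05 over all genes. With equal totals these medians became 0.03 and 0.23. Alad, the second enzyme of the pathway, averaged 29.3 ± 3.58 (SD, n = 4) FPKM in wild type and 13.8 ± 2.42 (SD, n = 3) in transgenic vehicle hearts, a difference of -0.99 ± 0.13 (SE, limma adjusted p = 0.000897). Urod fell by 0.44 ± 0.08 (adjusted p = 0.0051), and Tspo, an outer mitochondrial membrane protein, rose by 0.75 ± 0.13 (adjusted p = 0.00318). In heme uptake, breakdown and export, 1 of 7 tested rose and 2 fell, against the same shares, with a median of -0.37. The biliverdin reductases Blvra and Blvrb fell by 0.51 ± 0.11 (adjusted p = 0.00974) and 0.50 ± 0.09 (adjusted p = 0.00356), and Hmox1, the inducible heme oxygenase, rose by 0.65 ± 0.21 (adjusted p = 0.0453), a call lost in 16 of 23 alternatives.

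In the largest list, mitochondrial iron and iron-sulfur clusters, 8 of 21 genes fell and 1 rose, with a median of -0.25. Of all genes tested, 15.7% fell and 20.3% rose. Glrx5, which passes clusters on, fell by 0.62 ± 0.11 (SE, limma adjusted p = 0.00375), and Slc25a37, the mitochondrial iron importer mitoferrin 1, fell by 0.56 ± 0.09 (adjusted p = 0.00207). Iscu, the scaffold on which clusters are assembled, was the gene that rose, by 0.55 ± 0.08 (adjusted p = 0.00128), from 108 ± 7.88 (SD, n = 4) to 157 ± 8.47 FPKM (SD, n = 3). The number of falls depended on scaling: it was 1 of 21 with hearts scaled to equal totals and 12 with median of ratios. It also depended on the hearts and the model. There were 0 falls with day 158 hearts only and 3 with the replicate number as a block. Without transgenic vehicle heart 1 there were 5, and without heart 2 there were 12. The summed cardiomyocyte markers were 13321 to 15746 FPKM in wild type and 9726 to 12499 in transgenic vehicle hearts, with 3 of 6 called lower. The part of cardiomyocytes in the falls of this list was not tested.

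Among 7 tested genes of systemic iron control, 2 were called higher, 1 of them Bmp2, and 1 lower, against 20.3% and 15.7% of all genes. Smad7, an inhibitor of the signal that induces the hormone hepcidin in liver, rose by 0.996 ± 0.21 (SE, limma adjusted p = 0.00798), and Neo1, a co-receptor partner of hemojuvelin, fell by 0.49 ± 0.08 (adjusted p = 0.00208). Bmp2 was at 0.350 ± 0.161 (SD, n = 4) and 0.807 ± 0.146 FPKM (SD, n = 3), levels under the filter of 1 FPKM, which it reached only through the JIB-04 hearts, where it was highest, so its call (adjusted p = 0.0493) carries no weight. Hamp, the hepcidin gene, averaged 0.760 ± 1.52 (SD, n = 4) and 0.434 ± 0.724 FPKM (SD, n = 3) and did not pass. Of 4 other tested mRNAs known to carry an iron-responsive element, 1 fell and the median was 0.04. The gene that fell was Epas1, the hypoxia factor HIF-2α, also abundant in endothelium, at -0.65 ± 0.11 (adjusted p = 0.00275). Equal totals ended the calls of Fbxl5, Blvra, Blvrb, Urod, Glrx5 and Neo1, and day 158 hearts only, with 2 hearts per group, ended those of all genes named from the lists except Alad, Tspo and Iscu, Bmp2 being too low to test there. Without transgenic vehicle heart 1 the Blvra call was lost. The call of Bmp2 was lost in 12 of 17 alternatives.

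**Figure D5:**
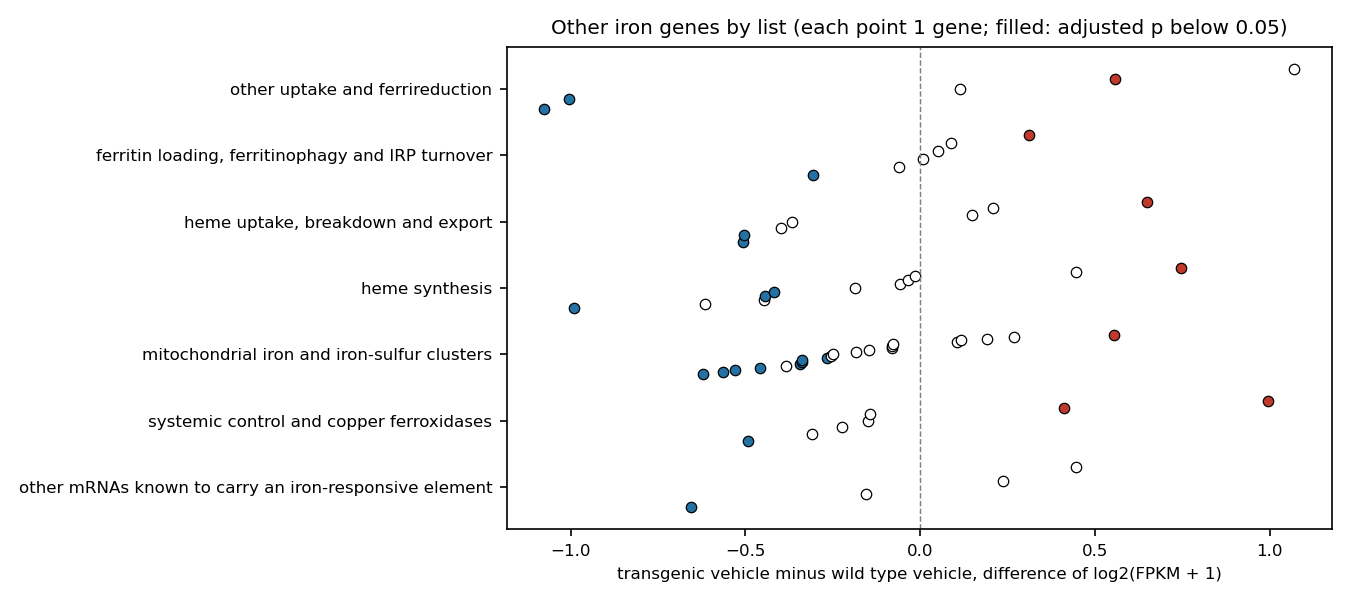
Transgenic vehicle minus wild type vehicle difference of log2(FPKM + 1) for every tested gene of the 7 lists (1 point per gene, filled where the adjusted p was below 0.05, blue lower and red higher; points within a list are spread vertically for legibility). Steap4, Steap3 and Alad lie lowest, near -1, and Smad7 is the highest filled point, at 0.996.

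None of the genes in the 7 lists was called between JIB-04 and vehicle in transgenic hearts (limma), nor between the days. Against wild type, JIB-04 hearts had 2 of 5 uptake and ferrireduction genes lower, with Steap4 at -1.18 ± 0.19 and Steap3 at -0.93 ± 0.20 (SE, limma adjusted p = 0.00281 and 0.0101). They had 6 of 21 mitochondrial iron and iron-sulfur genes lower and 1 higher, and 3 of 11 heme synthesis genes lower and 2 higher, against 14.8% of all genes lower and 17.4% higher. Without JIB-04 heart 2, 0 of the 21 were lower and 1 was higher, without JIB-04 heart 1 these were 4 and 0, and with equal totals 2 and 1. In heme synthesis 1 of 11 was lower without either JIB-04 heart, and also with equal totals. Alas2, the erythroid first enzyme of heme synthesis, was 1 of the 2 higher genes of that list, at 0.88 ± 0.28 (limma adjusted p = 0.0454), a call lost in 11 of 23 alternatives. Without either JIB-04 heart the Steap3 call was lost (adjusted p = 0.0738 and 0.0926), and without heart 2 that of Steap4 (0.0525). Alas2 is also one of the erythroid markers, and the part of blood cells in its value was not tested.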

How the data were processed

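Messenger RNA of 9 hearts was sequenced, and the authors deposited 1 table per heart of log2 FPKM values, per the file headers. No header gives the constant added before taking logs, and 1 was assumed because each table has 0 as its minimum. Per the labels' protocols, RNA was taken with Trizol into libraries without strand information. The tools, per the submitters' processing notes, are Cufflinks 2.2.1, STAR 2.7.1a, GATK 4.1.2 and Picard, with genome build GRCm38. Which tool did which step, the annotation and the depth were not given in the sources used here. Starts in the files count from 0 and are printed from 1.

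Genes with at least 1 FPKM in 2 hearts were fitted with limma 3.58.1 in R 4.3.3 (trended eBayes, group and day, all 9 hearts, 5 residual degrees of freedom plus 3.07 from the prior), two-sided. Ratios were compared by exact permutation of the absolute difference. The fit was tested on simulated data. All 10 genes are reported whatever their result, and other genes by list, up to 3 called genes each by size of change. A few genes of the lists are not reported here. Members, lists and tests were chosen with earlier results of these data known. The alternatives were pseudocounts of 0.1 and 0.5, no filter or 5 FPKM, 4 other scalings, no day term, the run of mouse numbers in the titles in its place, the replicate number as a block, compared groups or day 158 only, and leaving out each heart. Leaving out the hearts with mt-Atp6 above 0, and the order of JIB-04 and vehicle hearts under other scalings, were added after seeing the data.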

Additional observations from a re-analysis of the deposited data

How the results depend on the processing

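Slc40a1 and Cp kept their direction and call against wild type in all 23 alternatives. Over the 10 genes, 219 of the alternative values for the vehicle groups kept their side of the threshold and 11 newly passed it. For JIB-04 against wild type these were 199 and 14, and 17 calls were lost. Values are counts of calls unless said otherwise. For the vehicle groups, all genes gave 2458 with the replicate block and 1217 with day 158 hearts only, and the 10 genes gave 2 to 4 with 1 heart left out, the 4 without transgenic vehicle heart 3 and also without both hearts with mt-Atp6. For JIB-04 against wild type, all genes gave 1542 with the block, 651 with day 158 only and 1720 to 5322 with 1 heart left out, and the 10 genes 2 with day 158 only and 2 to 7 with 1 heart left out (2 without either JIB-04 heart, 7 without transgenic vehicle heart 3). For JIB-04 against vehicle, all genes gave 0 with pseudocount 0.1, a filter of 5 FPKM, the block, day 158 only or without the mt-Atp6 hearts, 6 with no filter and 0 to 3 with 1 heart left out. For the days they gave 23 with no filter, 186 with totals taken without mitochondrial and the 20 highest genes, 3 with the block, 20 without the mt-Atp6 hearts and 9 to 287 with 1 heart left out. The log2 ratio of Ireb2 over Aco1 differed by 0.22 (exact permutation p = 0.0571) with transgenic vehicle hearts only and by 0.41 with day 158 only (p = 0.10, the smallest possible with 3 against 2 hearts). Day 158 alone leaves 2 hearts per vehicle group, and the cause of the other shifts was not tested. Equal totals moved the median of all genes from 0.05 to 0.23 for the vehicle groups and to 0.18 for JIB-04 against wild type, and the split of calls in the former from 2739 higher and 2123 lower to 4489 and 1009 (in the latter from 2353 and 2001 to 2920 and 1070). Deviations of same-numbered hearts from their group means correlated at -0.19 to 0.43. These values cannot decide whether the numbers pair hearts: day was left in, and the 2 JIB-04 hearts deviate by equal and opposite amounts. No pairing was assumed in the main fit. In the block Trf was called (0.84 and 1.18) and Tfrc against wild type with JIB-04 (1.04), while Hfe (-0.41) and Fth1 (-0.26) were not. The unstated read depth limits values near 1 FPKM, as for Slc40a1 in transgenic hearts.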
